A study of Mus musculus and Homo sapiens with 43 samples.

Results

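The 10 genes described here are immediate early genes and genes of proteins that bind AU-rich elements (AREs) in mRNA. They are the Fos family members Fos, Fosl1 and Fosl2, the Jun family members Jun, Junb and Jund, the zinc finger factor gene Egr1, and the ZFP36 family members Zfp36, Zfp36l1 and Zfp36l2. They were selected by symbol from 30189 gene symbols in 3 gene tables of a study of LARS, the synthetase that charges tRNAs with leucine. The selection was made with the polysome, translational efficiency and RiboTag values of these genes in view, so their values are given as a description. All 10 are in the polysome and RiboTag tables, and 8 are in the efficiency table, which does not list Fos or Egr1.

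Immediate early genes as a class are transcribed within minutes of a growth factor or stress signal, without new protein synthesis, and their mRNAs are mostly short-lived. The members were taken by family, and not each of them need behave so. Their induction and mRNA stability were not measured here. Fos and Jun proteins pair through a leucine zipper to form the transcription factor AP-1, while EGR1 binds GC-rich DNA through zinc fingers. ZFP36 proteins bind AREs in the tails of short-lived mRNAs, many immediate early mRNAs among them, and recruit the enzymes that shorten the poly(A) tail, so the 2 groups act at opposite ends of the life of such an mRNA. In mammary tumors FOSL1 is known for invasive, mesenchymal-like cells.

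The polysome and efficiency tables come from 4T07, a mouse mammary carcinoma cell line with a control hairpin (shCtrl) or with 1 of 2 hairpins against Lars (shLars3, shLars4). Polysome profiling had 18 labelled libraries, 3 for each line and each fraction, which were mRNA on 1 to 2 ribosomes (low) and on 3 or more (high). RNA-Seq of the same lines had 6 labelled libraries, 2 per line, and the 1 pooled footprint library carried no group label. The RiboTag table comes from mammary tumors of C57BL/6J mice. All of these mice carried the PyMT oncogene and Cre, both driven by the MMTV promoter, and 1 floxed allele of rpl22HA (rpl22HA fl/wt), a tagged ribosomal protein that only cells with Cre express. In 3 tumors (Het) 1 of the Lars alleles was floxed as well (Lars fl/wt), and in 3 tumors (Lars wt) neither was. Ages were not given, and nothing in the labels says whether cell libraries came from separate cultures, so their p-values may measure technical spread only.

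The tables hold comparisons and no value per library, so no value per sample, depth per library or spread between replicates can be given beyond the deposited standard errors (SE). In the authors' deposited efficiency table Lars itself had log2 changes, knockdown over control, of -1.46 (mRNA) and -1.23 (footprints). The polysome and RiboTag tables do not state their direction, so genes are described by side, and Lars stood at -0.82 (SE 0.30) and -0.75 (SE 0.43) there in the authors' deposited tables. The polysome table does not state its contrast either. Its values may compare fractions, hairpins or both, so they are not read here as an effect of Lars knockdown. The smallest mean counts, each standing for 1 read in 1 library, took 27 values and so pointed to 27 libraries behind the polysome table, against 18 labelled, so libraries not described here may enter its values. The 4T07 values held Krt8 at a mean normalized count of 8383 and Vim at 59469, while 13 of 15 T, NK and B cell markers were below 1. Of 15 luminal markers, 4 reached a mean count of 50 in 4T07, among them Krt8 and Krt18 (4113), and all 15 did in the tumors. The luminal markers Epcam and Krt19 were low in 4T07, at 16.4 and 40.0, against 37552 and 8922 in the tumors. In the tumors 12 of 14 macrophage and monocyte markers reached a mean count of 50.

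Fosl1 ranked high in the line and low in the tumors, while Fos and Egr1 ranked higher in the tumors than in the line. These counts are not per length, so each gene is compared with itself by its percentile in each table. Per the authors' deposited polysome table, the mean for Fosl1 was 6884 normalized counts, above 98.2% of all genes there. In the authors' deposited RiboTag table it stood at 1.79, a sum of about 10.7 normalized reads over 6 libraries, above 25.9% of genes. Fosl1 was the 1 member that ranked far lower in the tumors than in the line. Fos ran the other way, with a mean of 17.7 (above 52.6% of genes) in the line and 1180 (82.7%) in the tumors in the authors' deposited tables. Egr1 did likewise, at 31.8 (54.7%) and 1403 (85.2%) in the authors' deposited tables. The other 7 members lay above 64.7% to 92.0% of genes in the line and above 83.7% to 98.4% in the tumors. These are means over all libraries of each table, and the difference between the tables was not tested.

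**Figure D1:**
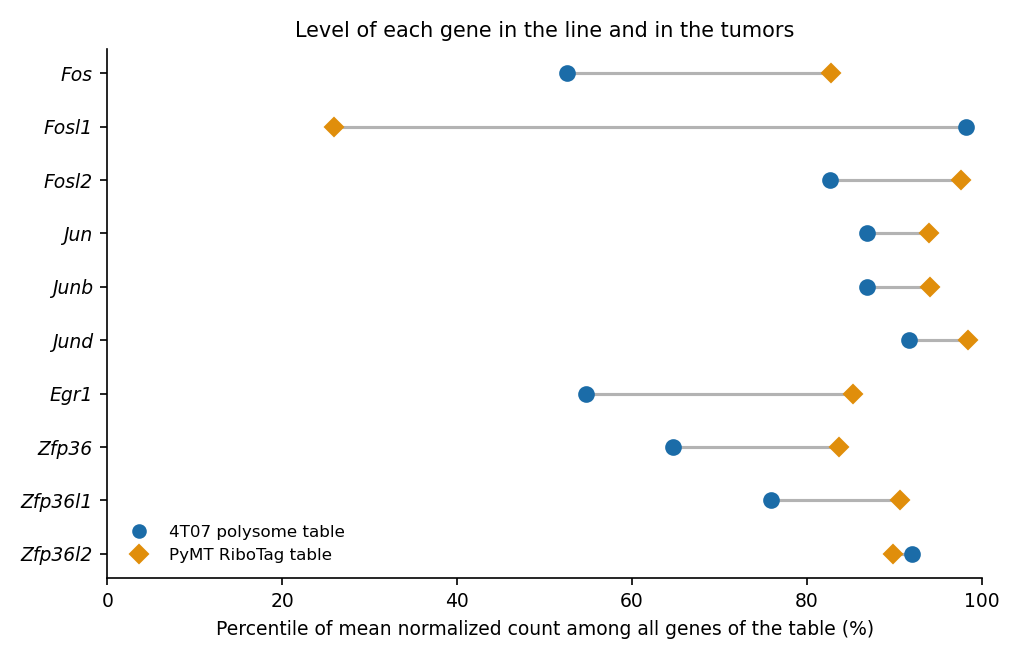
Percentile of the mean normalized count of each gene among all genes of its table, for the 4T07 polysome table (circles) and the PyMT RiboTag table (diamonds), with a line joining the 2 values of a gene. Fosl1 stood at 98.2% in the line and 25.9% in the tumors, Fos at 52.6% and 82.7%, and Egr1 at 54.7% and 85.2%.

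Fosl1 (chromosome 19, 5447698 to 5455938, GRCm38) is the 1 member whose span overlaps another annotated gene, Ccdc85b. The library kit does not mark strand, so reads of the 2 genes may not be told apart. By the authors' deposited tables Ccdc85b averaged 8678 normalized counts (polysome) and 2560 (RiboTag), beside 6884 and 1.79 for Fosl1. Its part in the Fosl1 values was not tested.

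Among the polysome values, Zfp36l2 stood far from the other members. Zfp36l2 (chromosome 17, 84183924 to 84187947), whose protein promotes decay of ARE mRNAs, had a log2 fold change of 1.46 (SE 0.14, 95% interval 1.18 to 1.73) per the authors' deposited table, or 2.74-fold. Its Wald statistic of 10.3 was the 15th highest of 13485 genes in the authors' deposited table, with a DESeq2 adjusted p of 9.02e-22. Its change was above that of 96.4% of these genes, and its SE was smaller than that of all but 2.35% of them. Its mean normalized count was 2303.

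Its relatives were lower and less precisely measured. Zfp36l1 (chromosome 12, 80107760 to 80113013) stood at 0.66 (SE 0.26, 95% interval 0.14 to 1.18, DESeq2 adjusted p = 0.0457) in the authors' deposited table. That interval only just meets the one of Zfp36l2. Zfp36, the founding member, which is itself an immediate early gene, stood at 0.11 (SE 0.49, interval -0.85 to 1.07) in the authors' deposited table. All 3 were thus on the positive side, 2 of them past the deposited threshold of 0.05.

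In the Fos family the sides differed. Fosl2 stood at 0.67 (SE 0.29, interval 0.09 to 1.24) in the authors' deposited table, nearly the value of Zfp36l1, with a DESeq2 adjusted p of 0.0739. Fos stood at 0.68 (SE 0.58, interval -0.45 to 1.81) in the authors' deposited table on a mean count of 17.7, so the same size of change was measured with an SE almost as large as itself. Fosl1 was on the opposite side at -0.36 (SE 0.29, interval -0.92 to 0.20) in the authors' deposited table. Ccdc85b, which overlaps it, stood at -0.68.

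No gene of the Jun family passed, nor did Egr1. Jun stood at 0.23 (SE 0.31), Junb at 0.11 (SE 0.38) and Jund at -0.39 (SE 0.39) in the authors' deposited table. Jund was thus the lowest of the 10 members. Their intervals overlapped one another and each included 0. Egr1 stood at -0.19 (SE 0.63, interval -1.43 to 1.05) in the authors' deposited table, the widest interval of the 10.

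Of the 10 members, DESeq2 called 2 positive and 0 negative in the authors' deposited table (adjusted p under 0.05). Over all genes 10.4% were called on the positive side, 17.5% on the negative side and 27.9% on either. At an unadjusted p under 0.05 the members called were Zfp36l2, Zfp36l1 and Fosl2, all on the positive side, as 14.7% of all genes were (37.9% on either side). On the positive side of 0 lay 7 of 10 members, where 42.8% of all genes did. The members' median was 0.17, against -0.12 over all tested genes. Centring on that median moved the split of all called genes from 1396 positive and 2365 negative to 1955 positive and 1761 negative; it changed no member's side, and Fosl2 then stood at 0.79 with an adjusted p of 0.0309 (normal test on the deposited SE, Benjamini-Hochberg). With p-values adjusted over every row, Zfp36l1 had an adjusted p of 0.0657 and Zfp36l2 was the 1 member called.

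**Figure D2:**
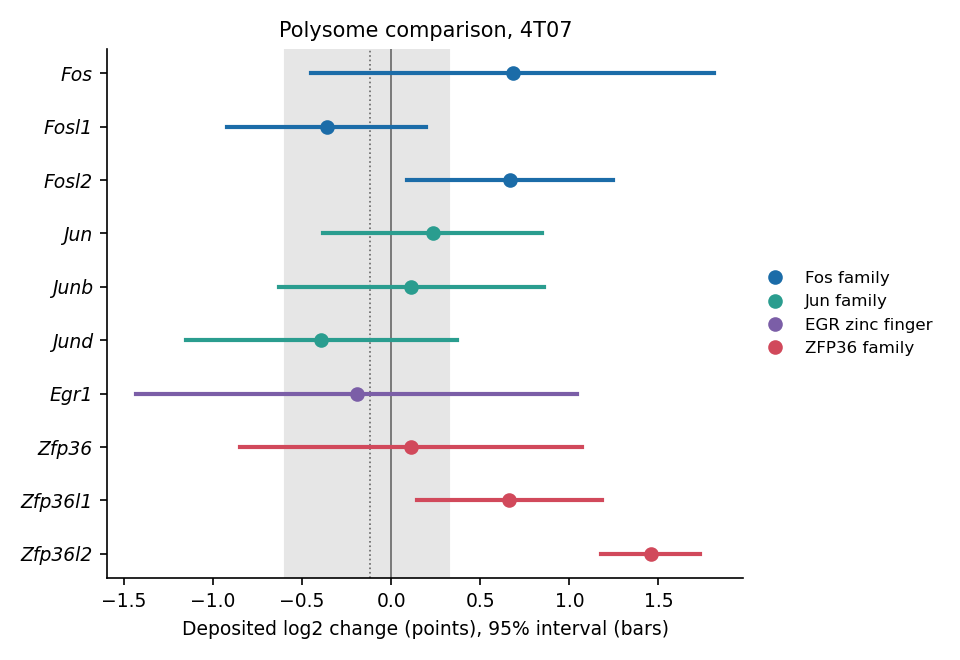
Deposited log2 change of each gene in the 4T07 polysome table (points) with its 95% interval from the deposited SE (bars), colored by family; the grey band holds the middle 50% of all tested genes and the dotted line their median of -0.12. Zfp36l2 at 1.46 lies outside the band with the shortest bar, and the bars of Zfp36l1 and Fosl2 also lie above 0.

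The mRNA level after Lars knockdown, which the efficiency table gives as knockdown over control, stood between -0.17 and 0.51 on the log2 scale for the 8 members listed. Zfp36 had the highest value, a log2 change of 0.51 in the authors' deposited table, above 96.1% of 9833 genes. Jund followed at 0.39 (above 93.5% of genes), Fosl2 at 0.24, Fosl1 at 0.16 and Jun at 0.14 in the authors' deposited table. Zfp36l1 at -0.05, Zfp36l2 at -0.06 and Junb at -0.17 were below 0 in the authors' deposited table. Thus 5 of 8 were above 0, where 49.9% of all genes were. The table gives no SE or test for mRNA, so none of these values can be set against replicate error.

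Promoter windows of 300 bases, from 250 before to 50 after the annotated start, were found for 7 of the 10 members in RefSeq (GRCm38.p6). None was found for Fosl1, Egr1 or Zfp36l2. The 3 shown are members with an mRNA value whose window holds a match to a motif of immediate early control. Each is given from 150 bases to 1 base before the start, 5′ to 3′ on the strand of the gene. In Zfp36 (chr7:28379229-28379378, minus strand) the capitals mark an EGR site and a CArG box, the element bound by serum response factor. In Fosl2 (chr5:32136322-32136471, plus strand) they mark an EGR site, and in Jun (chr4:95052223-95052372, minus strand) the AP-1-like octamer TGACATCA.
Zfp36: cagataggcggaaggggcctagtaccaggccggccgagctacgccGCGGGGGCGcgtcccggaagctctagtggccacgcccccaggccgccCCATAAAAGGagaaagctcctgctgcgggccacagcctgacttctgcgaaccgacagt
Fosl2: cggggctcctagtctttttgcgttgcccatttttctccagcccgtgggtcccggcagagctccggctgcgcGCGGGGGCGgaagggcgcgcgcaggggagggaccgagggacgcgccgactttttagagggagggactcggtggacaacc
Jun: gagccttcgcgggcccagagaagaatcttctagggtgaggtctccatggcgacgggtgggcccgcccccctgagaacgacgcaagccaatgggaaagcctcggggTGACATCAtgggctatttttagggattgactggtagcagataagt

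The CArG box was searched on both strands and matched 1 of the 7 member windows, Zfp36 at 58 to 49 bases before the start, where 1.63% of all 32851 windows hold one. The EGR site, GCGGGGGCG or GCGTGGGCG on either strand, matched Zfp36 and Fosl2, against 3.47% of all windows. In Fosl2 it overlaps the GC box GGGCGG, and in Zfp36 the CArG box shares 1 base with a GC box. The member windows were 46.67% (Jund) to 65.33% (Junb) G or C, against a median of 52.67% over all windows. Those of Fosl2 and Zfp36 were at 64.67% and 63.67%. The shares of all windows given here are not matched for G and C. TGACATCA matched Jun alone of the 7, against 3.62% of all windows. The consensus AP-1 site, TGACTCA or TGAGTCA, and the CRE TGACGTCA matched none of the 7 and 5.2% and 1.79% of all windows. The window of Jund held no match to any motif searched. No relation between motifs and mRNA values was tested. The GC box GGGCGG matched 4 of the 7 (Fos, Fosl2, Jun and Zfp36) and 35.7% of all windows, and the TATA box, TATAAA or TATATA, matched 3 (Fos, Junb and Zfp36l1) and 17.1%. The TATA match lay 33 to 28 bases before the start in Fos and 29 to 24 before it in Zfp36l1. In Junb it covered bases 1 to 6 from the start on, so it is not upstream of the start. A match here is a stretch of letters and says nothing of binding in these cells.

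Footprints, the mRNA pieces covered by ribosomes, had a log2 change below 0, knockdown over control, for 7 of 8 members, and 51.8% of all genes were below 0. Junb had the lowest value, a log2 change of -0.43 in the authors' deposited table, and Fosl1 followed at -0.38. Zfp36l2 at -0.20, Jun at -0.19, Jund at -0.18, Fosl2 at -0.12 and Zfp36l1 at -0.07 were closer to 0 in the authors' deposited table. Zfp36 was the exception at 0.05 in the authors' deposited table, with the highest mRNA value of the 8. For Fosl1, Fosl2, Jun and Jund the mRNA value was above 0 and the footprint value below 0, which held for 23.7% of all genes.

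The log2 change in translational efficiency, the ratio of footprints to mRNA, was accordingly below 0 for 8 of 8 members, against 52% of all genes. Jund had the lowest value, a log2 change of -0.56 in the authors' deposited table (unadjusted xtail p = 0.0337, xtail adjusted p = 0.775), where 6.94% of genes stood lower. Fosl1 stood at -0.52 in the authors' deposited table (unadjusted xtail p = 0.018, xtail adjusted p = 0.757). Zfp36 at -0.46, Fosl2 at -0.37, Jun at -0.33 and Junb at -0.23 came next in the authors' deposited table. The paralogs Zfp36l2 at -0.13 and Zfp36l1 at -0.02 were nearest to 0 in the authors' deposited table, and they had the most positive polysome values of the ZFP36 family. No member passed the xtail adjusted p of 0.05, as 0.0508% of all genes did, and 2 had an unadjusted p under 0.05, both on the negative side, as 3.88% of all genes did (6.35% on either side). The members' median was -0.35, against -0.01 over all genes. With the first of the 2 estimates that xtail makes, Fosl1 (adjusted p = 0.0275) and Jund (adjusted p = 0.0359) passed, both on the negative side, a call made for 2.47% of genes (5.2% on either side).

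**Figure D3:**
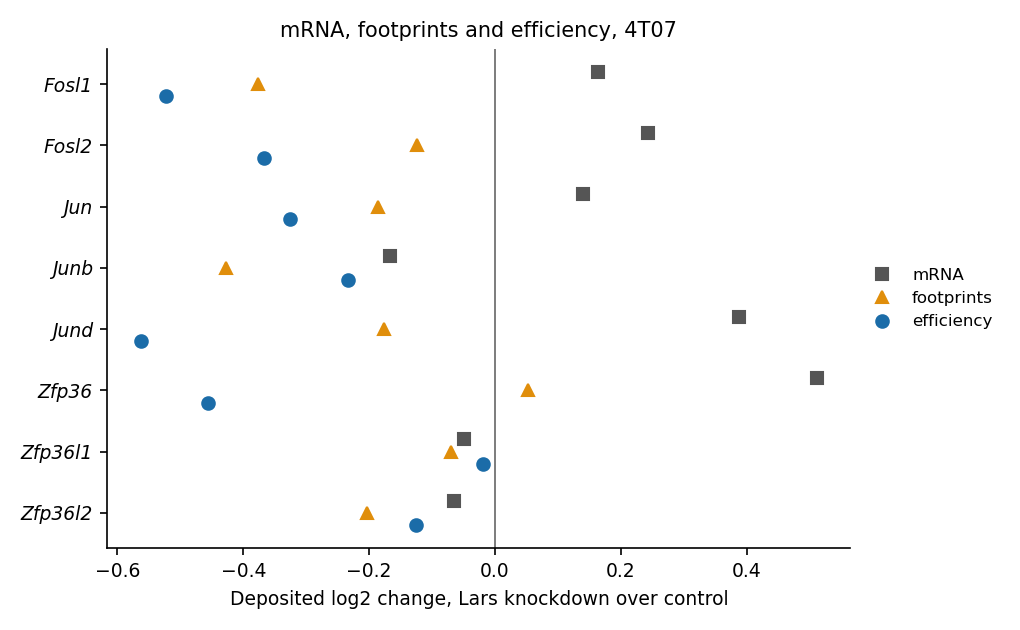
Deposited log2 changes of mRNA (squares), footprints (triangles) and efficiency (circles), Lars knockdown over control, for the 8 genes in the efficiency table. All 8 circles lie below 0, from -0.56 for Jund to -0.02 for Zfp36l1, and the squares of 5 genes lie above 0.

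The level of efficiency spanned a wider range than its change, among the members as among all genes, whose middle 50% ran from -0.77 to 0.79 for the control level and from -0.24 to 0.21 for the change. In control cells the log2 ratio of footprints to mRNA was 2.70 for Junb in the authors' deposited table, a 6.49-fold excess of footprints that exceeded 98.7% of genes. Zfp36 stood at 1.43, Fosl1 at 0.95, Jun at 0.91 and Zfp36l2 at 0.82 in the authors' deposited table. Zfp36l1 at 0.28 and Jund at 0.06 lay near the median of all genes, 0.04, and Fosl2 was lowest at -1.25 in the authors' deposited table, a ratio of 0.42. Within the Jun family alone the level thus ran from 2.70 to 0.06. In knockdown cells Junb stood at 2.44 and Fosl2 at -1.62 in the authors' deposited table, again the highest and lowest of the 8, and Jund moved from 0.06 to -0.50. Levels have no SE, so neighbors in this order cannot be separated, and the sources used here do not say whether footprints and mRNA were counted over the same exons.

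In the RiboTag tumors no member passed the threshold. The deposited values of the 3 ZFP36 genes were below 0. Zfp36l1 stood at -0.66 (SE 0.50), Zfp36l2 at -0.40 (SE 0.63) and Zfp36 at -0.30 (SE 0.43) in the authors' deposited table. Those of Egr1 and of the AP-1 genes with a mean count of at least 50 were above 0, Jun only by 0.03. Junb stood at 0.70 (SE 0.49), Fosl2 at 0.58 (SE 0.53) and Egr1 at 0.48 (SE 0.45) in the authors' deposited table. Fos stood at 0.38 (SE 0.49), Jund at 0.26 (SE 0.61) and Jun at 0.03 (SE 0.43) in the authors' deposited table. Fosl1 stood at 2.60 with an SE of 3.01 in the authors' deposited table on its mean count of 1.79, a value too uncertain to read. Every interval included 0, and no difference between the families was tested, so these signs do not show that they differ. Of the intervals, the widest other than that of Fosl1, for Zfp36l2, ran from -1.63 to 0.83.

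DESeq2 called 0 of the 10 members in the authors' deposited table at an adjusted p under 0.05, as it called 0% of all genes. At an unadjusted p under 0.05 it called 0 members and 1.19% of all genes. The smallest unadjusted p was that of Junb, 0.154. In all, 7 of 10 members were above 0, where 49.5% of all genes were, and their median was 0.32 against -0.01 over all genes. Without Fosl1, at a mean count of at least 50, 6 of 9 were above 0, with a median of 0.26. Most marker lists had more genes above 0 than below. All 10 neutrophil markers and 12 of 13 macrophage and monocyte markers with a value were above 0, and so were 13 of 15 luminal, 9 of 10 basal, 9 of 12 fibroblast and 6 of 8 adipocyte markers. Of the T, NK and B cell markers 9 of 15 were below 0 (median -0.21), and of the endothelial markers 6 of 10 (median -0.08). The summed mean count was 26677 for the neutrophil list, of which Ltf, known from milk too, gave 24921, and 19733 for the macrophage and monocyte list, against 169562 for the luminal list. Adgre1 of the macrophage list has no value in the table. The tagged ribosomal protein is expressed only by cells with Cre, so these counts are not a measure of cell numbers in the tumors. The part of these cells in the members' values was not tested, and fewer cells of a type and less RNA per cell cannot be told apart.

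**Figure D4:**
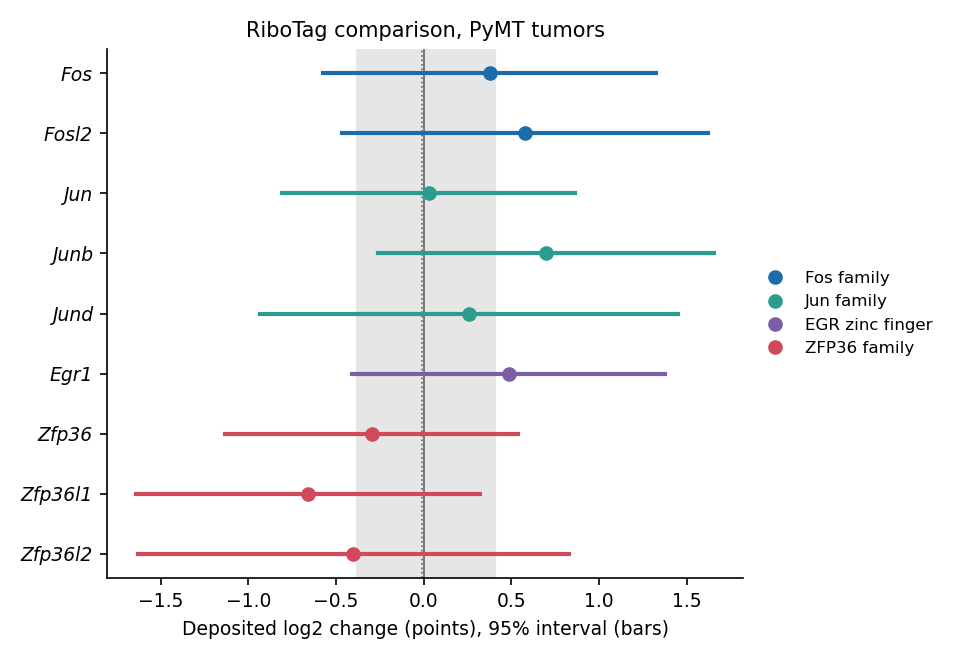
Deposited log2 change in the RiboTag table for 9 genes (points) with 95% intervals from the deposited SE (bars), colored by family; Fosl1 is left out for its mean count of 1.79, and the grey band holds the middle 50% of all genes. The 3 ZFP36 genes lie below 0 and the other 6 above 0, and every bar crosses 0.

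Side by side, no member passed the threshold in more than 1 of the 3 tables. Zfp36l2, at 1.46 in the polysome table, stood at -0.13 in efficiency and -0.40 in the RiboTag table. Fosl2 stood at 0.67, -0.37 and 0.58 in the same order, Junb at 0.11, -0.23 and 0.70, and Jund at -0.39, -0.56 and 0.26. The polysome and RiboTag tables give sides and the efficiency table a direction, so their signs cannot be matched. The contrast behind the polysome values is not stated either. A median was taken over the 7 members with a mean count of at least 50 in both DESeq2 tables, for each of the 4 changes in polysome, mRNA, footprint and RiboTag values. In 3 of the 4, all but footprints, that median is the value of Jun itself, so likeness to it is largely likeness to Jun. Of 9029 genes, the 5 nearest to it by distance in SD units were Nop56, Fam129b, Strn4, Gtpbp1 and Cc2d1a, at 0.17 to 0.29, where the median distance of all genes was 1.81.

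Most other immediate early genes had changes in efficiency on the same side as the members. Of 47 with a value, 38 were below 0, 8 above and 1 listed at 0, a share of 80.9% against 52% of all genes. Their median was -0.18 in efficiency, 0.01 in mRNA and -0.18 in footprints, so the mRNA values were centered near 0 and the footprint values below it. The lowest were Cebpb, a bZIP factor gene, at -0.69 and the kinase gene Plk3 at -0.66 per the authors' deposited table. Above 0 the same table held Btg1, an antiproliferative gene, at 0.41 and the kinase gene Sgk1 at 0.22, by the authors' deposited values. None passed (xtail adjusted p under 0.05), and 5 had an unadjusted xtail p under 0.05, all 5 below 0. Over all genes 0.0508% passed, and 3.88% had such an unadjusted p on the negative side (6.35% on either side). For Myc the authors' deposited table gave 0.35 (mRNA), -0.14 (footprints) and -0.47 (efficiency, unadjusted xtail p = 0.0245, xtail adjusted p = 0.768).

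Known AP-1 target genes showed a similar split, with 13 of 16 below 0 in efficiency and a median of -0.11. Plaur, the urokinase receptor gene, stood at -0.38 and the cyclin gene Ccnd1 at -0.43 in the authors' deposited table. The other lists lay nearer to all genes: 9 of 16 known ARE mRNAs were below 0, 22 of 34 genes of ERK, p38, JNK and SRF signalling, 11 of 25 other bZIP factors and 9 of 21 other ARE-binding proteins. For the known ARE mRNAs the footprint values were below 0 in 13 of 16, with a median of -0.36, and the mRNA values in 11 of 16, with a median of -0.12. Hif1a stood at 0.49 in efficiency in the authors' deposited table, the highest of that list. No gene of these lists passed in efficiency (xtail adjusted p under 0.05). These lists share genes with one another, such as Cebpb and Fosb.

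**Figure D5:**
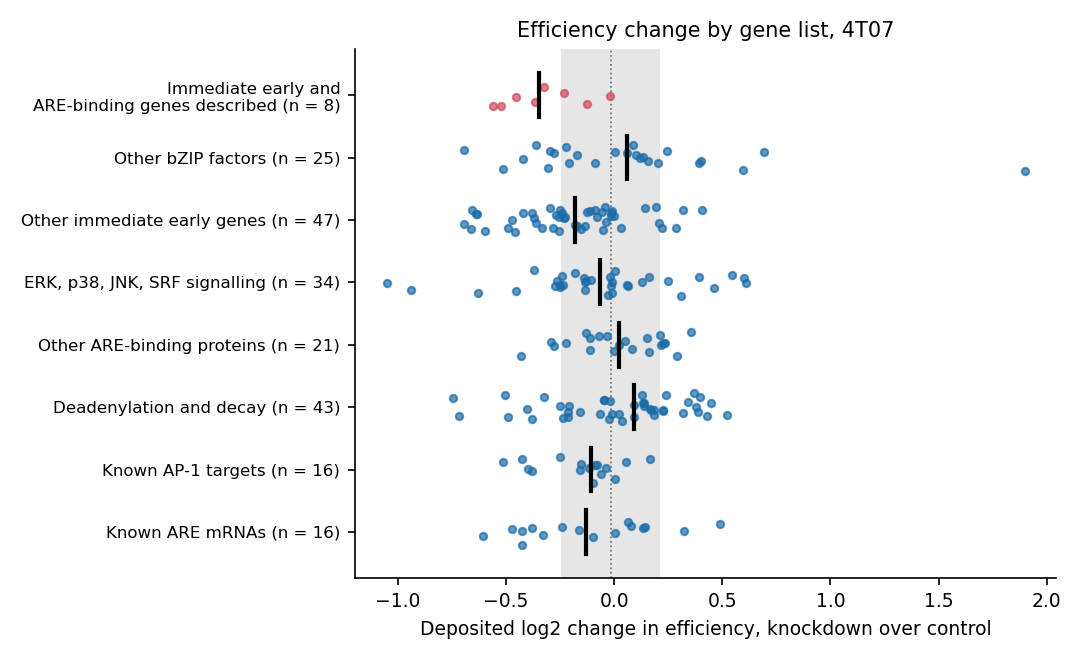
Deposited log2 change in efficiency, knockdown over control, for each gene of the described group (red) and of 7 lists (blue), with black bars at the medians; the grey band holds the middle 50% of all genes and vertical scatter within a row has no meaning. The medians were -0.35 for the described genes, -0.18 for other immediate early genes and -0.11 for known AP-1 targets.

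In the polysome table, DESeq2 called 5 of 51 other immediate early genes positive and 1 negative (adjusted p under 0.05), with a median of 0.11. Over all genes 10.4% were called positive and 17.5% negative, and a list's share near these is not a result about the list. The MAP kinase phosphatase genes Dusp4 at 1.75 (SE 0.23) and Dusp5 at 1.62 (SE 0.46) were the first of these in the authors' deposited table, and Cebpb at -0.83 (SE 0.25) was the 1 on the negative side. Other ARE-binding proteins had 6 of 23 genes on the positive side, among them Celf1 at 0.85 (SE 0.12) in the authors' deposited table. On the negative side the list had 1, Tial1 at -0.44 in the authors' deposited table. Among upstream genes, 3 of 34 were positive and 4 negative, with the SRF partner gene Elk4 at 1.58 and the stress kinase gene Rps6ka5 at 1.11 against Hras at -1.20 and Map2k2 at -0.69 in the authors' deposited table. Of 31 other bZIP factors 2 were positive and 4 negative, with Bach1 at 1.52 and Nfe2l1 at 0.77 against Batf3 at -1.76 and Cebpb in the authors' deposited table. Known ARE mRNAs had 2 of 20 on the positive side, Pim1 at 1.23 and Hif1a at 0.67 in the authors' deposited table. Known AP-1 targets had 1 of 18, Ets1 at 0.73 in the authors' deposited table.

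In the RiboTag table, 40 of 52 other immediate early genes were above 0, with a median of 0.38, and 0 passed (DESeq2 adjusted p under 0.05). Over all genes 49.5% were above 0, with a median of -0.01, and 0% passed. Fosb, the Fos family gene outside the 10 members, stood at 1.30 (SE 0.69) and Cebpd at 0.90 (SE 0.47) in the authors' deposited table, while Gadd45b stood at -0.74 (SE 0.54) and Id2 at -0.50 (SE 0.46). Known AP-1 targets had a median of 0.72 with 13 of 18 above 0. Among them Spp1, the osteopontin gene, stood at 1.45 (SE 0.52) in the authors' deposited table. Mmp9, a matrix protease gene also made by neutrophils, stood at 2.30 (SE 1.05) there, on a mean count of only 24.4. Targets below 0 included Areg at -0.59 (SE 0.70) and Hbegf at -0.46 (SE 0.57) in the authors' deposited table. Known ARE mRNAs had 17 of 24 above 0 and a median of 0.08, with the cytokine genes Il1b at 1.43 (SE 0.72) and Ccl2 at 1.37 (SE 0.76) in the authors' deposited table. Those below 0 included E2f1 at -0.44 (SE 0.55) and Dll4 at -0.59 (SE 0.74) in the authors' deposited table. Genes of ERK, p38, JNK and SRF signalling had a median of -0.07, other ARE-binding proteins one of -0.06 and other bZIP factors one of 0.02. The neutrophil and macrophage marker values given with the RiboTag members apply here too.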

How the data were processed

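The values are 3 comparison tables that the authors deposited, which hold no column per library; 2 tRNA tables hold none of these genes and were not used. Per the file headers, the polysome and RiboTag tables are DESeq2 results. Their mean normalized count is a signal, the authors' mean over libraries after size factors. Their log2 fold change and SE are on the log2 scale as deposited, and the Wald statistic is a score that the authors deposited, equal to change over SE. The deposited p-values are the authors' Wald p-values with an adjusted value. The efficiency table is an xtail result with log2 values and p-values, per the file headers; footprint minus mRNA change equalled knockdown minus control ratio within 7.33e-05, which fixes its direction. Libraries other than footprints used the TruSeq RNA kit v2, which does not mark strand, and the submitters' processing notes list STAR 2.5.2a, HTSeq, featureCounts, Bowtie2 2.4.1, DESeq2, SAMtools and the build mm10, without roles.

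Rows left out were 18 with symbols turned into dates (efficiency), and 7 with a repeated and 1 without a symbol (RiboTag). The IDs of all 10 members were found among the given gene names. Intervals are 95% normal intervals from the deposited SE. Percentiles are shares of genes with a lower value. Calls use the deposited adjusted p, with a threshold of 0.05. In each comparison every member and Lars were named, up to 2 genes per side of a list by smallest p, and the 5 genes nearest the members' median. Of the list genes this rule picks, not all are reported here. Single-read mean counts were those shared by at least 10 genes and not sums of smaller ones. Positions are from RefSeq GRCm38.p6. The members and lists were chosen with earlier results of these data known. The adjustment and the normal test were tested on simulated data. Work was done with scipy 1.17.1, pandas 2.3.3 and numpy 2.4.6 under Python 3.11.15, and plots with matplotlib 3.10.9.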

Additional observations from a re-analysis of the deposited data

How the results depend on the processing

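No paired analysis was possible because the tables hold no column per library, and for the same reason no replicate could be left out. Of the 10 members, 2 were called in the polysome table as deposited. Adjusting over every row, an adjusted p under 0.01, and a test of a log2 change beyond 0.5 each left 1, Zfp36l2; minimum mean counts of 10 and 50 left 2. The 50 called genes of the 7 pathway lists became 7 with a test beyond 0.5, by which 588 of all genes were called in place of 3761. In efficiency the 0 members called became 2 (Fosl1 and Jund) with the first xtail estimate, and 2 with unadjusted p-values; the 0 list genes became 11 and 15. Over all genes the 5 calls became 511 and 624, and 8 with the second estimate. RiboTag calls stood at 0 members under every alternative run, and at 4 list genes and 280 of all genes with unadjusted p-values. No member changed sign under any of these settings. The depth of the libraries is unknown, and mean counts of 17.7 for Fos and 31.8 for Egr1 in the line and 1.79 for Fosl1 in the tumors limit what their values show.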

Other observations

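Genes of the mRNA decay machinery, to which ZFP36 proteins deliver their targets, lay on both sides of the polysome table. DESeq2 called 6 of 46 positive and 16 of 46 negative (adjusted p under 0.05), with a median of -0.16, against 10.4% and 17.5% of all genes. The decapping helper gene Ddx6 stood at 1.00 (SE 0.18) and the exonuclease gene Xrn1 at 1.90 (SE 0.39) in the authors' deposited table. On the other side Lsm3, of the ring that binds deadenylated tails, stood at -1.91 (SE 0.32) and the exosome gene Exosc8 at -0.95 (SE 0.17) in the authors' deposited table. In efficiency none of 43 passed (xtail adjusted p under 0.05); the median was 0.09, with Lsm4 at -0.72 and Parn, a deadenylase gene, at 0.52 in the authors' deposited table.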
